A study of Mus musculus with 2 samples.

Results

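The genes described here were 39 genes of cholesterol and fatty acid synthesis and of their control by SREBP, taken from the 23282 gene rows of the count tables by gene symbol. The list holds the enzymes of sterol and fatty acid synthesis, the regulators of SREBP processing and the genes of sterol export. All 39 symbols were found, each in 1 row. RNA-seq compared control and RV-Cre Th17 cells, with 1 library per condition. Naïve CD4 T cells came from the spleens of female *Fak* fl/fl mice, and the culture methods give an age of 6 to 8 weeks. The cells were activated for 20 to 24 h and received either the empty control retrovirus or the retrovirus carrying Cre recombinase, which removes the floxed part of *Fak*. Both cultures had plate-bound anti-CD3ε at 10 μg/ml, soluble anti-CD28 at 5 μg/ml, IL-6 at 50 ng/ml, TGFβ1 at 1 ng/ml, TNFα at 1 ng/ml, IL-1β at 2 ng/ml, and anti-IFNγ and anti-IL-4 at 5 μg/ml each, for 3 days. The methods for these cultures describe sorting of GFP+ cells, so that the libraries report transduced cells, and the number of mice behind each library is not given in the sources used here. The control library is labelled WT for genotype, whereas its title names FAKfl/fl cells with control virus, and the title was followed.

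Cholesterol is built from acetyl-CoA through mevalonate and farnesyl diphosphate, which is joined into squalene, closed into lanosterol and trimmed to cholesterol. The transcription factors SREBP-1 (*Srebf1*) and SREBP-2 (*Srebf2*) switch on this pathway and fatty acid synthesis. SCAP carries them out of the endoplasmic reticulum when sterols are low, and the INSIG proteins hold SCAP back when sterols are high. The opposite arm is run by the liver X receptors (LXR), which sense oxysterols and switch on sterol export. Activated T cells raise lipid synthesis as they grow, and intermediates of cholesterol synthesis have been described as ligands of RORγt, the factor that defines Th17 cells.

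The control library held 13799264 counted reads and the RV-Cre library 12305010. QuantSeq reads come from the 3′ ends of transcripts, and a long transcript therefore gives no more counts than a short one. Reads were scaled by TMM factors, and ratios are given as RV-Cre over control on the scale of log2(normalized count + 1). An expression minimum was set at a log2 value of 4, or 15 normalized reads, in at least 1 library, and 12112 rows passed it. Each condition had 1 library, so differences could not be set against the spread of replicates, and no p-values are given. The 95% interval given with a ratio was computed from the split of the gene's reads (exact Clopper-Pearson method). It covers counting error alone, and it compares 2 libraries and not their conditions. *Ptk2*, the symbol of *Fak*, had 110 control and 31 RV-Cre reads, a ratio of 0.318 (0.206 to 0.477). The sources used here do not place the floxed part relative to the 3′ reads, so this count need not measure the deletion itself. The ribosomal RNA row *Rn45s* took 8.50% of control and 14.6% of RV-Cre reads.

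The T cell identity of both libraries was read from 8 markers, and all 8 had reads in both, with a summed ratio of 1.38 (1.36 to 1.40). *Cd4* had 1489 and 1342 reads and *Cd3e* 1453 and 2884, and 6 of the 8 had intervals wholly above 1. Markers of other cells differed as well. The 14 myeloid markers summed to 363 control and 955 RV-Cre reads, a ratio of 2.97 (2.63 to 3.36), and of these only *Adgre1* was at 0, in the control library. The myeloid markers did not move together. Of the 10 past the minimum, 5 were at least 2-fold higher and 1 was lower by that much, against 14.2% and 12.3% of all genes past it. *Marco* rose from 5 control to 289 RV-Cre reads, whereas *Lyz2* fell from 22 to 7. The 8 hepatocyte markers summed to 54 and 195 reads, a ratio of 4.08 (3.00 to 5.62), with *Tat* at 0 in both. The 6 adipocyte markers summed to 4 and 11 reads, and none passed the minimum. The 18 proliferation genes had a median log2 ratio of -1.73, and all 18 were lower with RV-Cre. Of these, 15 were lower by 2-fold or more, against 12.3% of all genes past the minimum. The part of these differences in the values of the lipid genes was not tested.

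Sequence before the start of a few genes is shown first, because SREBP acts through sterol regulatory elements near the start sites of its target genes, alongside CCAAT-binding factors and SP1, which reads GC boxes. RefSeq sequences (GRCm38.p6) matched 31 of the 39 genes. *Hmgcs1* and *Srebf2* are shown because they held the letters of a sterol regulatory element, *Lss* and *Abca1* because their RV-Cre reads were lower by 2-fold or more, and *Mvd* because it had the highest ratio among the sterol enzymes past the minimum. *Scd2*, which was also lower by 2-fold or more, is not among the sequences shown. Each runs 5′ to 3′ on the strand of the gene and stops before the first base that either RefSeq or GENCODE M21 gives as transcribed, which for *Srebf2* lies 88 bases before the RefSeq start. Capitals mark matches on either strand to the motifs TCACNCCAC and TCACCCCA (sterol regulatory element and its core, which overlap), CACGTG (E-box), CCAAT and GGGCGG (GC box).
Hmgcs1, chr13:119690101-119690350, plus strand: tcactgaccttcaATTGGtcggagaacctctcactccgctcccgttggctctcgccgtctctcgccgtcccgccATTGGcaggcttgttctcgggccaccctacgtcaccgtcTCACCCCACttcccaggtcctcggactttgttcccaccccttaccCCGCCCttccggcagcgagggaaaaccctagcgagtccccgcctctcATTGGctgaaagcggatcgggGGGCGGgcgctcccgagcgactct
Srebf2, chr15:82147019-82147180, plus strand: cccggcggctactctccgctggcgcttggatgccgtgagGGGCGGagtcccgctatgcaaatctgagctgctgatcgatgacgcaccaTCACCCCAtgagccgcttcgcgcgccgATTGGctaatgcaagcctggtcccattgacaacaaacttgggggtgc
Mvd, chr8:122443423-122443672, minus strand: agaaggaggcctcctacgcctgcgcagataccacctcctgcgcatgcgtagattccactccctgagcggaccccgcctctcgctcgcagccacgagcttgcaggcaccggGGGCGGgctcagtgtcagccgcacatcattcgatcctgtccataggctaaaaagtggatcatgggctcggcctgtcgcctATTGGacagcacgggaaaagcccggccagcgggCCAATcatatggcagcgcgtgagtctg
Lss, chr10:76531355-76531564, plus strand: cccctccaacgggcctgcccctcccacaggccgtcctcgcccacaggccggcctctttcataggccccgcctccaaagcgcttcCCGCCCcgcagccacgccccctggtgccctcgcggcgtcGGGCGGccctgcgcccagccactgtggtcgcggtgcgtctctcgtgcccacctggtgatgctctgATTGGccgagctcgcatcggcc
Abca1, chr4:53159989-53160145, minus strand: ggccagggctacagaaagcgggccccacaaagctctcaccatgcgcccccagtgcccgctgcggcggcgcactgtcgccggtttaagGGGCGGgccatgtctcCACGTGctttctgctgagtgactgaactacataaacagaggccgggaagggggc

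The motifs were searched in the 250 bases before each annotated start, 39 windows for the 31 matched genes and 32851 windows in all. The longer sterol element was found before 1 gene, *Hmgcs1*, where it began 137 bases before the start, and in 1.05% of all windows. The core, searched after the sequences had been seen, was also found before *Srebf2*, 162 bases before the start that RefSeq gives, and in 1.34% of all windows. CCAAT was in 24 of the 39 windows (61.5%), against 33.8% of all windows and 35.4% of windows of genes past the expression minimum. The GC box was in 27 windows (69.2%), against 32.7% of all windows and 56.4% of those of genes past the minimum. The E-box was in 7 windows (17.9%), against 6.02% and 8.29%. These are matches of letters and not measured binding sites, and several genes have more than 1 window.

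Most of the 39 genes differed by less than 2-fold between the libraries, and the 3 that differed most among those past the minimum were lower with RV-Cre. Of the 39, 37 passed the expression minimum. None of the 37 was at least 2-fold higher, whereas 14.2% of all genes past the minimum were. At least 2-fold lower were 3 of the 37 (8.11%), against 12.3% of all genes, namely the desaturase *Scd2*, the lanosterol synthase *Lss* and the sterol exporter *Abca1*. The counting interval lay wholly above a ratio of 1 for 7 (18.9%), where 36.7% of all genes had such an interval. It lay wholly below 1 for 15 (40.5%), against 38.1% of all genes, and held 1 for the other 15.

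The median log2 ratio was -0.14 over the 37 genes and -0.01 over all genes past the minimum. The middle 50% of the 37 ratios ran from -0.53 to 0.12, a width of 0.66, against -0.53 to 0.53 and a width of 1.07 for all genes. The middle 50% of the lipid genes was therefore narrower on the upper side and alike at its lower end. Low counts scatter ratios, so the same was read with a minimum of 8 on the log2 scale, or 255 normalized reads, a setting chosen after the data were seen. At that level 26 of the genes remained, of which none was higher by 2-fold or more and 1 (3.85%), *Scd2*, was lower by that much. Of all 6863 genes at that level, 4.62% were higher by 2-fold or more and 9.73% were lower by that much. Scaling to *Gapdh* moved the median of all genes by 0.44 and that of the lipid genes to 0.33, which left them 0.10 below all genes, against 0.13 below with TMM. With TMM, *Gapdh* itself had 956 control and 634 RV-Cre reads, a ratio of 0.748 (0.676 to 0.828).

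**Figure D1:**
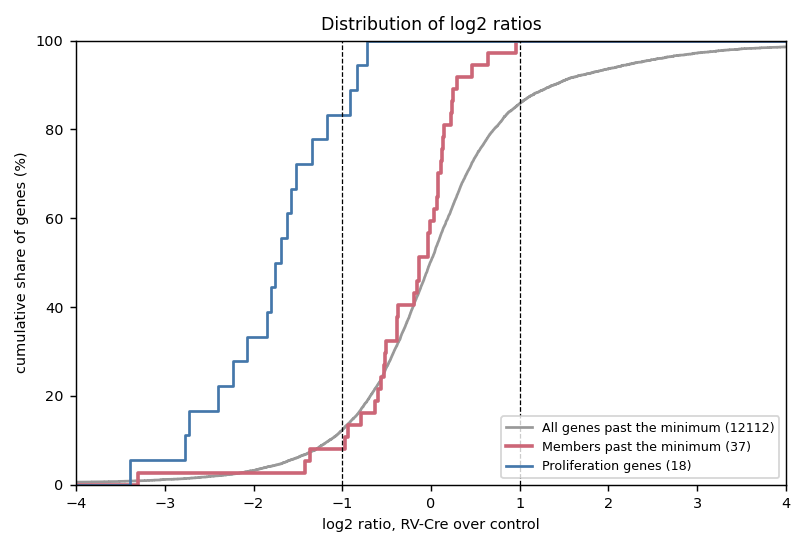
Cumulative share of genes (percent) by log2 ratio of RV-Cre over control for all 12112 genes past the expression minimum, the 37 lipid genes past it and 18 proliferation genes, with dashed lines at 2-fold. The curve of the lipid genes reaches its top before the upper 2-fold line, stays near that of all genes below a ratio of 1, and lies to the right of the proliferation genes.

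The first 7 enzymes, from acetyl-CoA to farnesyl diphosphate, were all above the minimum and none was changed 2-fold. The highest was *Mvd*, the decarboxylase that makes isopentenyl diphosphate, with 429 control and 596 RV-Cre reads. Paired read counts below follow that order, control first. Its log2 ratio was 0.65, a ratio of 1.57 (1.38 to 1.78). The lowest was *Idi1*, which isomerizes that product, with 240 and 108 reads. Its log2 ratio was -0.97, a ratio of 0.508 (0.401 to 0.640), so that consecutive steps had intervals on opposite sides of 1.

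The entry of the pathway held the only other such pair. In all, 15 pairs of consecutive enzymes past the minimum were compared, within this group and within the later steps to cholesterol. Only 2 of them lay on opposite sides of 1. Of all genes past the minimum, 36.7% had intervals wholly above 1 and 38.1% wholly below it. *Acat2*, the cytosolic thiolase that joins 2 acetyl-CoA, had 4040 and 3965 reads, a ratio of 1.11 (1.06 to 1.16). *Hmgcs1*, which adds the next acetyl-CoA and carries the sterol element shown above, had 1562 and 973 reads, a ratio of 0.703 (0.648 to 0.762). The closely related row *Acat3*, with which *Acat2* could share reads, had 4740 and 3335 reads and a log2 ratio of -0.33, so the value of *Acat2* is uncertain. *Fdps*, which makes farnesyl diphosphate, had 802 and 545 reads and a ratio of 0.767 (0.687 to 0.856). The kinases *Mvk*, with 121 and 117 reads, and *Pmvk*, with 355 and 286, had intervals that held 1. The group's reads summed to 7549 and 6590, a ratio of 0.985 (0.953 to 1.02), in which *Acat2* weighed most.

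**Figure D2:**
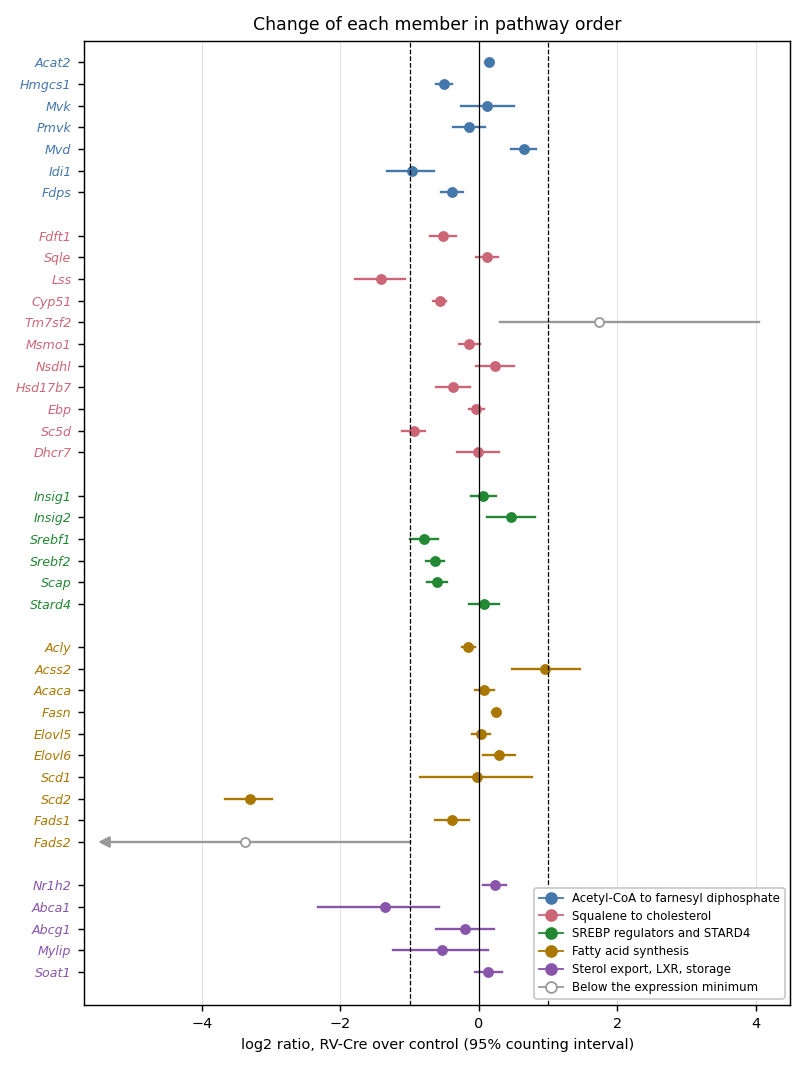
Log2 ratio of RV-Cre over control (horizontal axis) for each of the 39 genes in pathway order, coloured by group, with bars for the 95% counting interval and dashed lines at 2-fold. Open grey points are the 2 genes below the expression minimum, the arrow marks an interval with no lower bound, and *Scd2*, *Lss* and *Abca1* are the filled points beyond the lower 2-fold line.

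The enzymes that turn farnesyl diphosphate into cholesterol had a median log2 ratio of -0.25 over the 10 of 11 past the minimum. Their summed reads were 8016 and 5604, a ratio of 0.789 (0.762 to 0.816). The median was -0.05 with library totals that left out *Rn45s* and 0.28 with scaling to *Gapdh*, both over all 11 genes, since *Tm7sf2* then passed the minimum. *Lss*, which closes squalene epoxide into lanosterol, was the lowest, with 264 and 87 reads. Its log2 ratio was -1.42, a ratio of 0.372 (0.288 to 0.476). The gene lies at chr10:76531565-76557139 on the plus strand. An exon of *4930483K19Rik* overlaps it on the opposite strand, and that row had 3 reads and 0 reads.

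*Sc5d*, the desaturase near the end of the pathway, followed with 958 and 442 reads and a ratio of 0.521 (0.464 to 0.583), short of 2-fold. *Cyp51*, the lanosterol demethylase, had the most reads of the group, 2459 and 1476, with a ratio of 0.677 (0.635 to 0.723). *Fdft1*, the squalene synthase, had 643 and 398 reads and a ratio of 0.698 (0.615 to 0.793). *Hsd17b7*, a ketoreductase that acts during demethylation, had 334 and 229 reads and a ratio of 0.774 (0.651 to 0.918). These 5 of the 10 enzymes had intervals wholly below 1, as 38.1% of all genes had, and none had one wholly above 1, against 36.7% of all genes.

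The other 5 enzymes past the minimum had intervals that held 1. *Sqle*, the squalene epoxidase that acts just before *Lss*, had 665 and 637 reads and a ratio of 1.08 (0.968 to 1.21). *Nsdhl*, which acts with *Hsd17b7*, was the highest past the minimum, with 212 and 221 reads and a log2 ratio of 0.23 (ratio 0.970 to 1.43). *Msmo1*, *Ebp* and *Dhcr7*, a demethylase, an isomerase and the last reductase, had 762 and 614, 1520 and 1315, and 195 and 171 reads. The intervals of *Ebp* (0.906 to 1.05) and *Hsd17b7* overlapped. *Tm7sf2*, a sterol reductase, stayed below the minimum with 4 and 14 reads, a ratio of 3.95 with an interval from 1.24 to 16.5. Its exons overlap those of *Vps51* on the same strand. Exons of *Fdft1* and *Cyp51* overlap *Ctsb* and *Akap9* on the opposite strand. *Ctsb* had a ratio of 0.786 and *Akap9* one of 1.08, and the use of strand in the counting is not given in the sources used here.

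**Figure D3:**
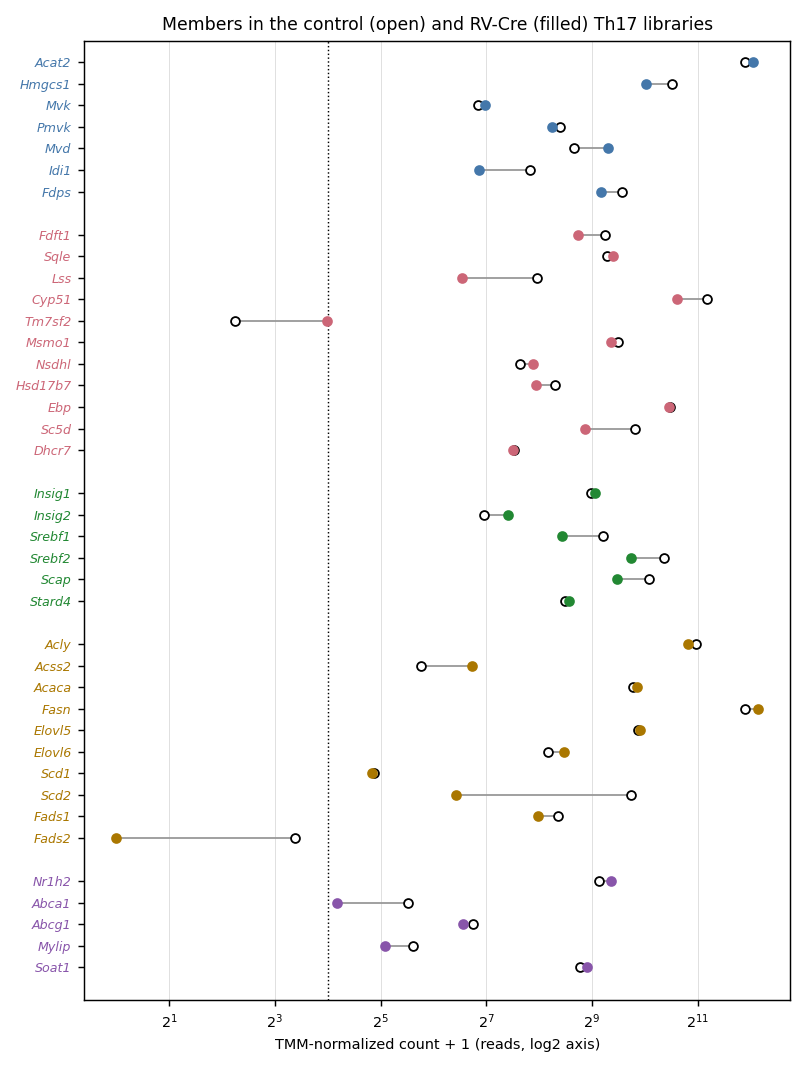
TMM-normalized counts plus 1 (log2 axis) of the 39 genes in the control library (open points) and the RV-Cre library (filled points, coloured by group), with the expression minimum dotted. The lines that join the points are longest for *Scd2* and for *Fads2*, the latter below the minimum in both libraries.

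Both SREBP genes and their escort had ratios with intervals wholly below 1, while the intervals of the genes that hold SCAP back held 1 or lay above it. Of the 6 regulators, 3 thus had intervals wholly below 1 and 1 wholly above it, against 38.1% and 36.7% of all genes past the minimum. *Srebf1* was the lowest of the 6 regulators, with 630 and 323 reads, a log2 ratio of -0.79 and a ratio of 0.579 (0.504 to 0.663). *Srebf2*, whose upstream sequence holds the sterol element core, had 1406 and 804 reads and a ratio of 0.645 (0.591 to 0.704). *Scap* had 1150 and 671 reads and a ratio of 0.658 (0.598 to 0.725). None of the 3 was 2-fold lower. *Rai1*, whose exons overlap *Srebf1* on the opposite strand, had 331 and 335 reads.

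*Insig2* was the highest of the regulators, with 131 and 160 reads, a log2 ratio of 0.46 and a ratio of 1.38 (1.09 to 1.75). *Insig1*, itself a target of SREBP, had 539 and 499 reads, and its interval of 0.923 to 1.18 held 1. *Stard4*, a carrier of cholesterol between membranes that SREBP-2 also controls, had 381 and 356 reads and an interval of 0.910 to 1.22. The 6 regulators summed to a ratio of 0.749 (0.714 to 0.786). Their median log2 ratio was -0.27, and 0.15 with scaling to *Gapdh*.

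In fatty acid synthesis 1 gene stood apart. *Scd2*, a stearoyl-CoA desaturase that makes monounsaturated fatty acids, had 903 control reads and 80 RV-Cre reads. Its log2 ratio of -3.31 (ratio interval 0.0785 to 0.126) was the lowest of all 37. The gene lies at chr19:44293676-44306864 on the plus strand. The related *Scd1* had 30 and 26 reads, and its interval of 0.556 to 1.71 held 1. Of the reads on *Scd1* and *Scd2* together, *Scd2* took 96.8% of 933 control reads (exact binomial interval 95.4% to 97.8%) and 75.5% of 106 RV-Cre reads (66.2% to 83.3%). The further family rows *Scd3*, with 0 and 5 reads, and *Scd4*, with none in either library, did not make up the difference.

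The enzymes that build the chain differed little or were higher. *Fasn*, the fatty acid synthase, had 4051 and 4270 reads, the most of all 39 in the RV-Cre library, and a ratio of 1.19 (1.14 to 1.24). *Acaca*, the carboxylase that commits acetyl-CoA to the chain, had 932 and 872 reads and an interval of 0.962 to 1.16. *Acss2*, which makes acetyl-CoA from acetate, was the highest of the 37, with 57 and 99 reads. Its log2 ratio was 0.96, a ratio of 1.96 (1.40 to 2.76). The other cytosolic source of acetyl-CoA, the citrate lyase *Acly*, had 2133 and 1698 reads and a ratio of 0.898 (0.842 to 0.958). Exons of *Acss2* overlap 3 rows on the opposite strand, of which *Gss* had 147 and 126 reads, *Ggt7* 7 and 4, and *Acss2os* 0 and 3.

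The elongases and the other desaturases had smaller differences. *Elovl6*, which lengthens palmitate, had 306 and 332 reads and a ratio of 1.22 (1.05 to 1.43), and *Elovl5*, which lengthens polyunsaturated chains, had 994 and 901 reads and an interval that held 1. *Fads1*, a desaturase of polyunsaturated chains, had 349 and 237 reads and a ratio of 0.766 (0.647 to 0.906). Its partner *Fads2* was below the minimum, with 10 reads and 0 reads. Against a floor of 3 reads, what a count of 0 allows, it was at least 2.95-fold lower. The counting interval of the ratio, which also holds the error of the 10 control reads, reached up to 0.503. The 10 genes summed to a ratio of 0.984 (0.956 to 1.01), and to 1.07 (1.04 to 1.11) without *Scd2*. The median log2 ratio of the 9 past the minimum was 0.03.

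Of the genes of sterol export and storage, *Abca1* was at least 2-fold lower. It codes for the transporter that passes cholesterol to lipid-poor lipoprotein and is a target of LXR. It had 48 and 16 reads, a log2 ratio of -1.36 and a ratio of 0.376 (0.199 to 0.674). With scaling to *Gapdh* its log2 ratio was -0.96, short of 2-fold. The gene lies at chr4:53030789-53159988 on the minus strand. Of the other genes of this group, the LXR targets *Abcg1* and *Mylip* had fewer reads in the RV-Cre library, but with intervals that held 1. *Abcg1*, a second exporter, had 114 and 88 reads (ratio 0.652 to 1.16), and *Mylip*, a ubiquitin ligase of lipoprotein receptors, had 51 and 31 (0.424 to 1.09).

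LXRβ itself, *Nr1h2*, was the highest of this group, with 597 and 620 reads, a log2 ratio of 0.23 and a ratio of 1.17 (1.05 to 1.31). *Soat1*, which esterifies cholesterol for storage, had 464 and 453 reads and an interval of 0.966 to 1.26. The group had a median log2 ratio of -0.20 with TMM and 0.22 with scaling to *Gapdh*. Its reads summed to 1274 and 1208, a ratio of 1.07 (0.988 to 1.16). In bulk libraries such as these, fewer cells that carry a transcript and less of it per cell cannot be told apart.

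**Figure D4:**
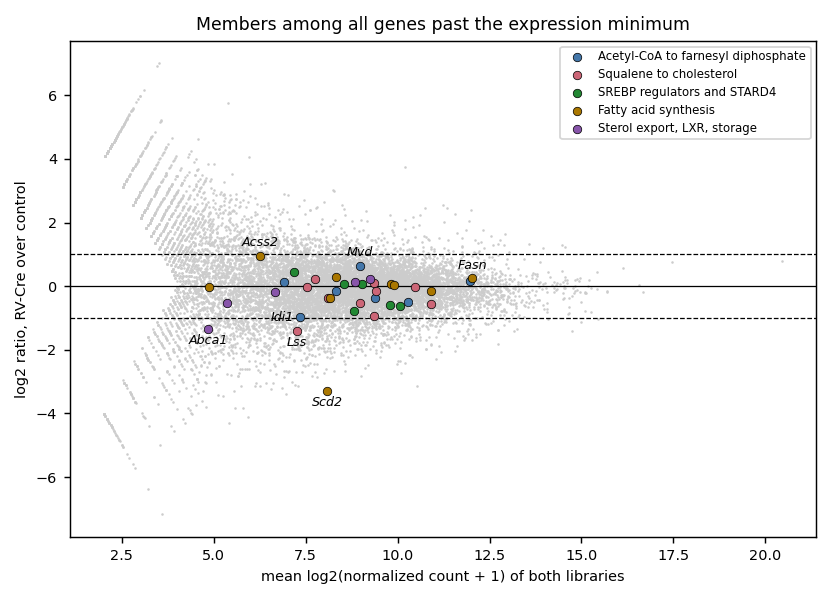
Log2 ratio of RV-Cre over control (vertical axis) against the mean log2(normalized count + 1) of both libraries for the 12112 genes past the expression minimum (grey), with the 37 lipid genes coloured by group and dashed lines at 2-fold. *Scd2* at -3.31 lies apart from the other lipid genes, which run from -1.42 for *Lss* to 0.96 for *Acss2*.

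Genes of the same pathways outside the 39 were read from further lists. Of 12 genes that process or degrade SREBP, SCAP or INSIG or belong to the same sterol response, all passed the minimum. The number higher by 2-fold or more was 0, and 3 were lower by that much. Of all genes past the minimum, 14.2% were higher and 12.3% lower by that much. *Erlin1*, part of a complex that restrains SREBP, was the lowest, with 90 and 18 reads and a log2 ratio of -2.09. *Syvn1*, a ubiquitin ligase of the endoplasmic reticulum, had 593 and 187 reads. *Tmem97*, a sterol-regulated membrane protein, had 1179 and 433. *Mbtps1*, the first protease to cut SREBP, was the highest, with 1503 and 1482 reads and a log2 ratio of 0.15. The median was -0.23.

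Of 13 genes that use isoprenoids beyond farnesyl diphosphate, all passed, with a median of -0.27 and 1 gene 2-fold changed in each direction. The shares of all genes past the minimum were 14.2% higher and 12.3% lower by that much. *Rabggtb*, a subunit of the enzyme that attaches geranylgeranyl groups to Rab proteins, was the lowest, with 2928 and 1063 reads and a log2 ratio of -1.29. *Pdss2*, which helps build the tail of coenzyme Q, was the highest, with 12 and 34 reads and a log2 ratio of 1.59. Of 16 further genes of fatty acid synthesis and activation, 15 passed, with a median of -0.24. The lowest was *Hacd2*, a dehydratase of long-chain elongation, with 436 and 120 reads and a log2 ratio of -1.68. The highest was the elongase *Elovl7*, with 21 and 46 reads and a log2 ratio of 1.26. With scaling to *Gapdh* the medians of all 3 lists were above 0, at 0.19, 0.15 and 0.18 in the order given.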

How the data were processed

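RNA-seq was available for 1 control and 1 RV-Cre Th17 library, each made with a 3′ kit (QuantSeq) from total RNA (500 ng). The deposited values were raw read counts of each gene symbol, unnormalized. Per the labels, the submitters' processing notes name bcl2fastq 2.20.0.422, Bowtie2, bedtools and mm10, with no role given. Filters, annotation and use of strand are not given in the sources used here. The libraries held 13799264 and 12305010 reads.

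Counts were scaled by TMM (edgeR 4.0.16, R 4.3.3; size factors 1.06 and 0.941), on the scale of log2(normalized count + 1). Changed genes had a ratio of 2 or more in either direction and passed a log2 minimum of 4. Exact Clopper-Pearson 95% intervals came from scipy 1.17.1. Reads carry no molecular identifiers, so intervals and the floor of 3 reads cover counting error only. The scripts were tested on simulated data. Values in both libraries are given for *Ptk2*, genes changed 2-fold and the highest and lowest ratio of each group, and the other genes in short. Beyond the 39 genes, the lists hold the changed, highest and lowest genes by name. The 39 genes and the other lists were chosen with earlier results of these data known. Gene positions and overlaps came from RefSeq on GRCm38.p6 (mm10) and exons from GENCODE M21.

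The alternatives were library totals, DESeq2 1.42.0 size factors, totals without *Rn45s*, scaling to *Gapdh*, median centring, quantile normalization (limma 3.58.1), pseudocounts of 0.1 and 10, other minimums, folds of 1.5 and 3, a 99% interval and the 23 genes that overlap no other gene. B cell and CD8 or NK cell markers summed to 57 and 710 control reads and to 124 and 942 RV-Cre reads. Of the 4 CD8 or NK markers past the minimum, 2 were at least 2-fold higher and 1 was lower by that much. The shares of all genes past it were 14.2% and 12.3%. The markers so changed were *Cd8a*, with 322 control and 580 RV-Cre reads, *Cd8b1*, with 122 and 274, and *Klrd1*, with 240 and 57. Of 8 Th17 markers 7 passed the minimum, 5 of them at least 2-fold lower, against 12.3% of all genes past it.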

Additional observations from a re-analysis of the deposited data

How the results depend on the processing

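No paired analysis was possible because there was a single library of each kind, and no replicate could be left out. The number of lipid genes at least 2-fold higher, 0 with TMM, was 2 with library totals without *Rn45s*, 3 with scaling to *Gapdh*, 1 with no minimum and 2 at 1.5-fold. The number at least 2-fold lower, 3 with TMM, was 2 with *Gapdh*, where *Abca1* was lost, 8 at 1.5-fold and 1 at 3-fold, 1 with a minimum of 8 (a setting chosen after the data were seen) and 1 among the 23 genes that overlap no other gene. Intervals wholly above 1, 7 with TMM, numbered 12 without *Rn45s*, 21 with *Gapdh*, 12 with quantile normalization and 3 among the 23 genes. Intervals wholly below 1, 15 with TMM, numbered 9 with *Gapdh* and 7 among the 23 genes. The median was 0.33 with *Gapdh*, and that scaling turned the log2 ratios of *Fdps* to 0.035, *Hsd17b7* to 0.048, *Acly* to 0.26 and *Fads1* to 0.034. Of 296 single-gene values over the 37 genes, 257 stayed within the gene's counting interval under TMM, 35 left it and the 4 named, whose intervals had lain wholly below 1, changed sign. Genes whose interval held 1 also changed sign with *Gapdh*, among them *Pmvk* (to 0.28) and *Ebp* (to 0.38). The 23 genes are a smaller set, so their counts cannot be set directly beside those of the 37. Their median log2 ratio was -0.09, against -0.14 for the 37. The part of gene overlap in these values was not tested. The low counts of *Abca1* and *Acss2* give wide intervals, and *Fads2* and *Tm7sf2* were below the minimum. A single library per condition leaves the spread between cultures unmeasured.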

Other observations

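A further list of 12 mixed genes of sterol transport, oxysterols such as *Ch25h* and *Gpr183*, and other lipid enzymes such as *Acat1* was read. Of these 12 genes, 11 passed the minimum. Their median log2 ratio was 0.34, with 1 gene higher by 2-fold or more and 3 lower by that much, where 14.2% and 12.3% of all genes past the minimum were. With quantile normalization the median was 0, with 2 genes higher and 3 lower, and with scaling to *Gapdh* it was 0.76, with 3 higher and 1 lower. *Ch25h*, which makes 25-hydroxycholesterol, was the lowest, with 33 control and 0 RV-Cre reads, at least 9.75-fold lower against a floor of 3 reads. The counting interval of its ratio, which also holds the error of the control reads, reached up to 0.133. *Gpr183*, the receptor for an oxysterol made from that product, was the highest, with 244 and 511 reads and a log2 ratio of 1.24. *Cyp7b1*, the enzyme between them, had 3 reads and 0 reads. *Npc2*, a lysosomal sterol carrier, had 5120 and 8860 reads and a ratio of 1.95 (1.89 to 2.02), chosen after its values were seen. The other genes at least 2-fold lower were *Acat1*, the mitochondrial thiolase, with 1082 and 413 reads, and *Osbp*, an oxysterol-binding transfer protein, with 186 and 76.

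Of 13 genes of fatty acid oxidation in mitochondria, all passed the minimum, with a median log2 ratio of 0.13. At least 2-fold higher were 2 and lower by that much 1, against 14.2% and 12.3% of all genes past it. *Cpt1a*, which commits long-chain fatty acids to oxidation, was the highest, with 122 and 253 reads and a log2 ratio of 1.22. Its partner *Cpt2* had 82 and 148 reads and a log2 ratio of 1.02. *Acadm*, the medium-chain dehydrogenase, was the lowest, with 506 and 212 reads and a log2 ratio of -1.08. It was no longer 2-fold lower with library totals without *Rn45s*, *Gapdh* scaling or quantile normalization. With 1 library per condition none of these differences has a replicate check.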
